A study of Mus musculus with 18 samples.

Results

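The miRNAs of normal juvenile mouse liver were examined in the 4 control animals of a study of thyroid hormone. The animals were male C57BL/6 pups at post natal day (PND) 15, from dams whose drinking water held 1% sugar and no goitrogen, and by the methods of the study controls were injected with saline only before sacrifice. Controls 1 and 2 belong to study 1 and controls 3 and 4 to study 2 of the labels. They are 4 of the 18 samples of the series, and the hypothyroid pups were not used. Each liver RNA (750 ng) had been measured on TaqMan low density arrays (TLDA), a pair of cards named A and B on which every well amplifies 1 small RNA by PCR. All 517 assays on the cards with a mouse miRNA name were taken, 335 on card A and 182 on card B. The result of a well is its threshold cycle (Ct), the cycle at which the product is first seen, so a low Ct stands for much miRNA. U6, a small nuclear RNA, was read in 4 wells of each card, and delta Ct is the Ct of an assay minus the mean U6 Ct of the same card and animal. A delta Ct lower by 1 corresponds to 2 times as much miRNA, if each assay doubles its product in each cycle. The efficiency of the assays is not given in the sources used here, so levels of different assays are set side by side as a description.

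MiRNAs are cut from RNA hairpins as a short duplex, of which usually one strand, the guide, is kept by Argonaute proteins and the other, the star strand, is degraded. The guide finds target mRNAs mainly through its seed, bases 2 to 8 from the 5′ end, and miRNAs with the same seed form a family. Hairpins that lie close together on a chromosome form a cluster and are usually cut from 1 transcript. In liver, miR-122 is the classical hepatocyte miRNA, while miR-126 marks endothelium and miR-223 marks myeloid cells.

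The mature sequences of the families that held most of the miRNA signal are shown so that shared seeds can be seen, with the seed in capitals. They are from RefSeq (GRCm38.p6), in which 261 of the 517 assays were matched to a mature miRNA, 124 by the same name and 137 through the newer names of their arms. The arm names were assigned by naming convention, with the guide as the major arm, and the target sequences of the assays themselves were not used here. The miR-30 family shares GUAAACA.
miR-30a: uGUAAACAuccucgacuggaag
miR-30c: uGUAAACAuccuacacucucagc
miR-30e: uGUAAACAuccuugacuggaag
MiRs-19a and 19b share GUGCAAA.
miR-19a: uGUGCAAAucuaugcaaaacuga
miR-19b: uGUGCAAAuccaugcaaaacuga
The miR-17 family shares AAAGUGC.
miR-17: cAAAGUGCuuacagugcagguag
miR-20a: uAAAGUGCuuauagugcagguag
miR-93: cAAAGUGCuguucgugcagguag
miR-106a: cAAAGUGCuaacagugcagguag
The miR-15/16 family shares AGCAGCA.
miR-15a: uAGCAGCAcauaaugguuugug
miR-15b: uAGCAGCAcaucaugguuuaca
miR-16: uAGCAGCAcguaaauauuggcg
The let-7 family shares GAGGUAG.
let-7c: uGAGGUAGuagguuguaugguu
let-7e: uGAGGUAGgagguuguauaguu
let-7g: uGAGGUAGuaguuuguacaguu
miR-98: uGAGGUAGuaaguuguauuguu
The miR-29 family shares AGCACCA.
miR-29a: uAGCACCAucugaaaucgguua
miR-29b: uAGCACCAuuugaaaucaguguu
miR-29c: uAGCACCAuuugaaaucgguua
MiRs-192 and 215 share UGACCUA, although their levels below are far apart.
miR-192: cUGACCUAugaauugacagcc
miR-215: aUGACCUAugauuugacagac
MiR-126-3p and miR-24 were the only assays matched to their seeds.
miR-126-3p: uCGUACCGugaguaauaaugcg
miR-24: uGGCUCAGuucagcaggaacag

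The number of assays read was 343 in control 1, 331 in control 2, 330 in control 3 and 342 in control 4. An assay was counted as read when at least 1 of its wells gave a Ct within 40 cycles. In all 4 animals 285 assays were read, in 3 animals 38, in 2 animals 28, in 1 animal 36 and in none 130. The 102 assays read in only some of the animals were late, with a median Ct of 35.7, and for 68 of them the mean Ct was 35 or more. A plant miRNA assay, ath-miR159a, gave no Ct in any of its 8 wells. Ranks of the 285 assays agreed closely between animals, with Spearman's rho between 0.972 and 0.980 for the 6 pairs of animals, across assays which are not independent replicates and which share the cards. The spread between animals depended on the level. The median SD of delta Ct was 0.29 for the 47 assays with a mean Ct below 25 and 0.30 for the 113 from 25 to 30, but 0.70 for the 108 from 30 to 35 and 1.09 for the 17 from 35 to 40. Most assays of card B (142 of 182) had 2 wells, and these wells differed by a median of 0.12 cycles below a Ct of 25 and by 1.64 cycles above 35. Above 35 cycles only 1 of the 2 wells was read in 54.7% of cases, against 0% below 30.

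The scale of the cards was not the same. U6 was read 1.59 ± 0.45 cycles earlier on card B than on card A (SD, n = 4), while the small nucleolar RNAs snoRNA135, snoRNA202 and U87 were all read later on card B in every animal. Against U6 of the same card, the delta Ct of snoRNA135 was thus 4.78 ± 0.27 higher on card B, that of snoRNA202 3.85 ± 0.18 and that of U87 3.71 ± 0.22. Y1, a further small RNA, was 8.71 ± 1.70 higher, with some of its wells on card B unread. The mean of the 3 small nucleolar RNAs was 4.09, 3.97, 4.34 and 4.04 in controls 1 to 4. Ranks are therefore given over all assays by the delta Ct of the same card. For ranks, strand pairs and some of the summed shares, the value with card B lowered by the shift of each animal is given too.

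**Figure D1:**
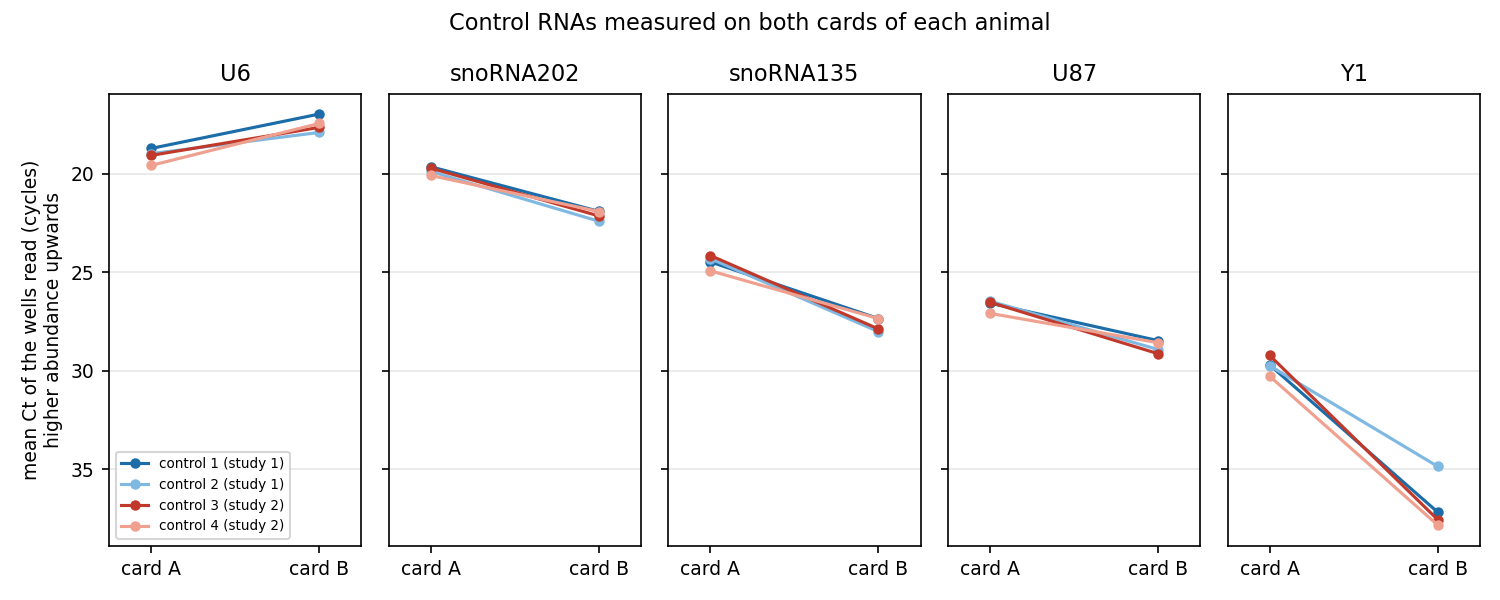
Mean threshold cycle (Ct, y axis in cycles, with abundance upwards) of U6 and 4 other control RNAs on card A and card B, with 1 line for each control animal. U6 rose in abundance from card A to card B by 1.59 cycles on average, while each of the other 4 RNAs fell in every animal.

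MiR-122 had the lowest delta Ct, with 0.52, 0.01, −0.38 and −0.61 in controls 1 to 4, a mean of −0.11 ± 0.50 (SD, n = 4). It was thus about as early as U6 itself in all 4 livers. MiR-126-3p, which lies with miR-126-5p in an intron of the endothelial gene Egfl7, was at 0.91, 0.70, 0.58 and 0.73. It came after miR-122 in 4 of 4 animals, by 0.84 ± 0.41 cycles or 1.80-fold. MiR-30c (1.78 ± 0.32) and miR-19b (1.81 ± 0.21) followed, and they were not separable, as they differed by 0.03 ± 0.13 cycles and changed order in 1 animal. Next came miR-16 (2.17 ± 0.19), miR-126-5p (2.45 ± 0.59), miR-24 (2.57 ± 0.26), miR-30b (2.77 ± 0.24), miR-17 (3.04 ± 0.22) and miR-192 (3.26 ± 0.12). Ranks 11 to 20 lay between 3.56 and 4.51 and were held by miR-191, miR-26b, miR-30e, miR-484, let-7g, miR-146a, miR-26a, miR-106a, miR-20a and let-7e. Ranks 21 to 30 lay between 4.54 and 4.96 and were held by miR-93, miR-720, miR-145, miR-29a, miR-19a, let-7c, miR-194, miR-92a, miR-30a and miR-31. The sequence named miR-720 has since been assigned to a tRNA. Within these 30 assays the order of 2 neighbours was the same in 4 of 4 animals for 7 of 29 neighbours, in 3 animals for 11 and in 2 animals for the other 11. Single ranks are therefore mostly within the spread between animals, but the distance from rank 1 to rank 20 was 24.7-fold.

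**Figure D2:**
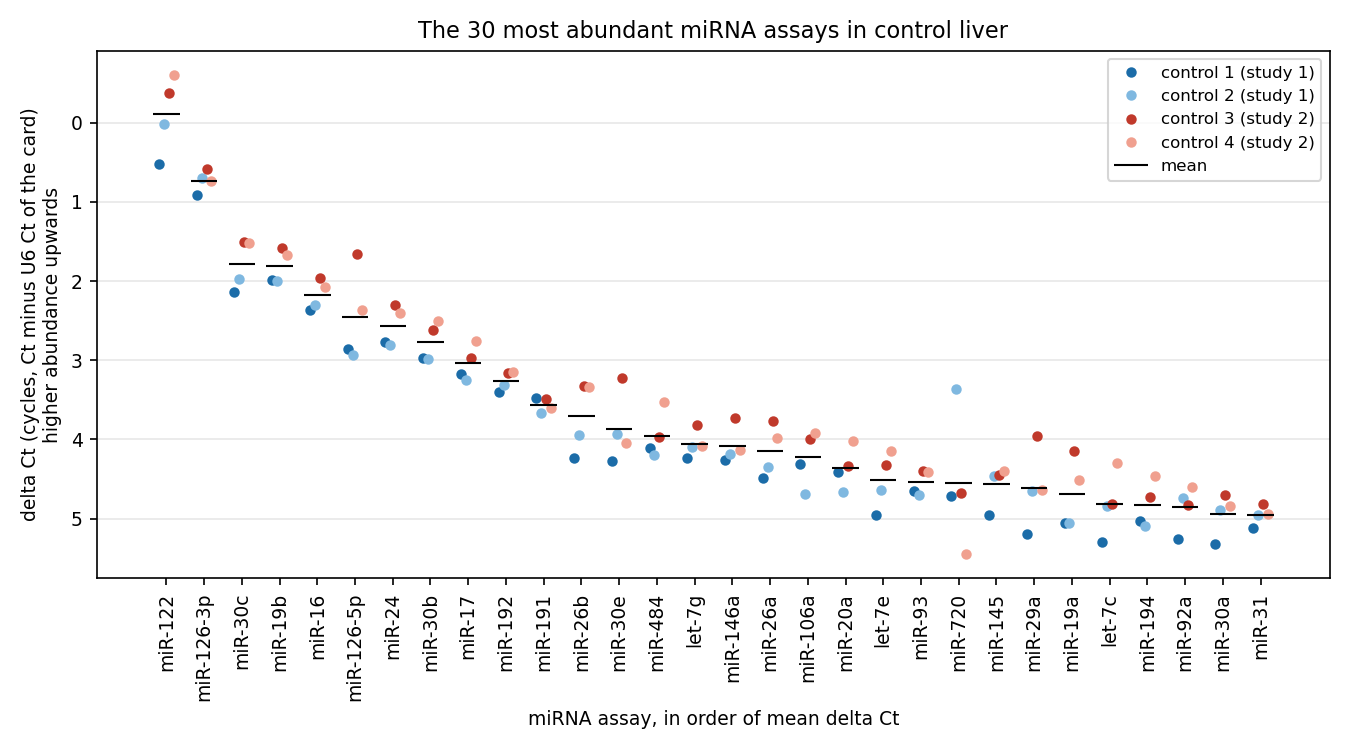
Delta Ct (cycles, with abundance upwards) of the 30 most abundant assays, with 1 point for each control animal and a line at the mean. MiR-122 and miR-126-3p stand above the rest, neighbouring assays further down overlap, and miR-720, from card B, has the widest spread (SD 0.87).

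Few miRNAs held most of the signal. When delta Ct was turned into a linear level (2 to the power of minus delta Ct) and summed over all assays read in an animal, miR-122 held 17.3%, 21.2%, 22.2% and 26.2% in controls 1 to 4. MiR-126-3p held 12.0 ± 1.41% (SD, n = 4). The first 10 assays together held 64.1 ± 1.91%, the first 20 held 76.5 ± 1.89% and the first 30 held 84.2 ± 1.18%. Of the 285 assays read in all 4 livers, 30 were below a delta Ct of 5, 106 from 5 to 10, 113 from 10 to 15 and 36 above 15. The lowest of these was let-7d*, at 20.6.

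These ranks are almost all from card A, as 29 of the first 30 assays were on it. With card B lowered by the small nucleolar RNA shift, 8 of the first 30 were on card B and 13 of the first 20 stayed. MiR-122 remained first, and miR-720 (0.44), whose sequence has since been assigned to a tRNA, and miR-709 (0.99) moved to ranks 2 and 4. MiR-466d-3p moved to rank 7, miR-30a* to rank 8, miR-378 to rank 10, miR-30e* to rank 13, miR-805 to rank 15 and miR-101b to rank 25. The first 10 then held 61.3 ± 3.96%. The shift leaves the order within card B as it was by construction, and where these assays stand among those of card A was not settled by these data. Shares of assays of card A fall with the shift, since the sum then holds more of card B, and that of miR-122 was then 14.8 ± 3.87%.

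Seed families were then summed. The miR-30 family, with 5 of 5 assays read in all 4 animals, held 10.9 ± 0.41% of the summed level (7.39 ± 0.98% with the shift), and its members ran from miR-30c (1.78) over miR-30b (2.77), miR-30e (3.87) and miR-30a (4.94) to miR-30d (6.62). MiRs-19a and 19b, the next by share among shared seeds, held 6.44 ± 0.46%. The miR-17 family held 5.49 ± 0.65% (3.73 ± 0.72% with the shift), with miR-17 first and miR-20b (8.81) last of 6. The miR-15/16 family held 4.86 ± 0.29% (3.27 ± 0.34% with the shift), most of it miR-16. MiR-195 (6.70), miR-15b (7.16), miR-322 (8.75), miR-15a (9.14) and miR-497 (9.25) were far below miR-16. The let-7 family, known for its rise in late development, held 4.29 ± 0.25%, or 2.90 ± 0.42% with card B lowered by the shift. Its 9 members with the let-7 seed were all read, let-7g (4.06), let-7e (4.51), let-7c (4.82), let-7d (5.44), let-7b (5.65), let-7i (5.69), let-7a (6.99), let-7f (7.90) and miR-98 (11.2). MiR-202-3p, which was in the let-7 list used here but has the seed GAGGUAU, was late and read in 3 animals. MiRs-26a and 26b held 2.65 ± 0.26%, and the miR-29 family 1.17 ± 0.25%. MiRs-99a, 99b and 100 were within 0.37 cycles of each other (6.81 to 7.19), and together held 0.46 ± 0.04%. The members of the miR-29 family were not alike, as miR-29a was at 4.62, miR-29c at 5.90 and miR-29b at 11.4. In each animal miR-29b was later than miR-29a by 6.60 to 7.02 cycles, or 109-fold on average.

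Clusters were taken as RefSeq miRNA hairpins on 1 strand, each within 10000 bases of the next. The miR-17-92 cluster lies at chr14:115043671-115044506 on the plus strand and is known for driving growth and for blood cell development. By the delta Ct of the same card it held the largest share of the clusters, 10.6 ± 0.72%. Clusters were not ranked by share with the shift, which gave this cluster 7.15 ± 1.04%. All 6 of its guides were read in all 4 livers, with miR-19b at 1.81, miR-17 at 3.04, miR-20a at 4.36, miR-19a at 4.70, miR-92a at 4.86 and miR-18a at 9.55. MiR-18a was later than miR-19b by 7.60 to 7.86 cycles in the 4 animals, although both hairpins lie in this one cluster. The miR-19b and miR-92a assays also read a second hairpin, in the related miR-106a-363 cluster on chromosome X. There miR-106a (4.23) and miR-20b (8.81) were read in all 4 animals, miR-363 in 1 and miR-18b in none. In the third related cluster, on chromosome 5, miR-93 (4.54) came before miR-106b (7.55) and miR-25 (9.68).

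Such gaps within a cluster were common. Of 42 clusters with 2 or more hairpins on the cards, 32 had at least 2 assays, star strands aside, read in all 4 animals, and the earliest and latest of these were a median of 3.80 cycles apart. The gap was above 4 cycles in 16 of the 32. A gap can only widen with more assays in a cluster, and the gaps were not compared with those of assays taken at random. Several assays each count in more than 1 cluster, among them miR-19b, miR-92a, miR-24, miR-29b, miR-194, let-7a, let-7c and let-7f. Some clusters count both arms of a hairpin or assays of both cards. With card A alone and the earliest assay of each hairpin the gap was smaller in 4 of the 32 clusters, and the median and the 16 above 4 cycles were as before. MiR-425 was later than its neighbour miR-191 by 5.36 to 5.74 cycles (chr9:108568319-108568861, plus strand). MiR-15b was later than miR-16 by 4.80 to 5.18 cycles (chr3:69009772-69009996, plus strand), with miR-16 cut from a second locus too. MiR-194 is made from a hairpin beside miR-192 (chr19:6264643-6264932, plus strand) and another beside miR-215 (chr1:185313319-185313692, plus strand). MiR-194 (4.83 ± 0.29) was within 1.57 ± 0.20 cycles of miR-192, while miR-215 (14.7 ± 0.99) was later than miR-194 by 9.88 ± 0.80 cycles, or 945-fold. Other clusters were even. MiR-200b, miR-429 and miR-200a (chr4:156053905-156055750, minus strand) were within 1.31 cycles, at 6.09, 6.60 and 7.41. MiR-100 and let-7a (chr9:41531425-41536811, plus strand) differed by 0.13 ± 0.39 cycles and changed order between animals.

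**Figure D3:**
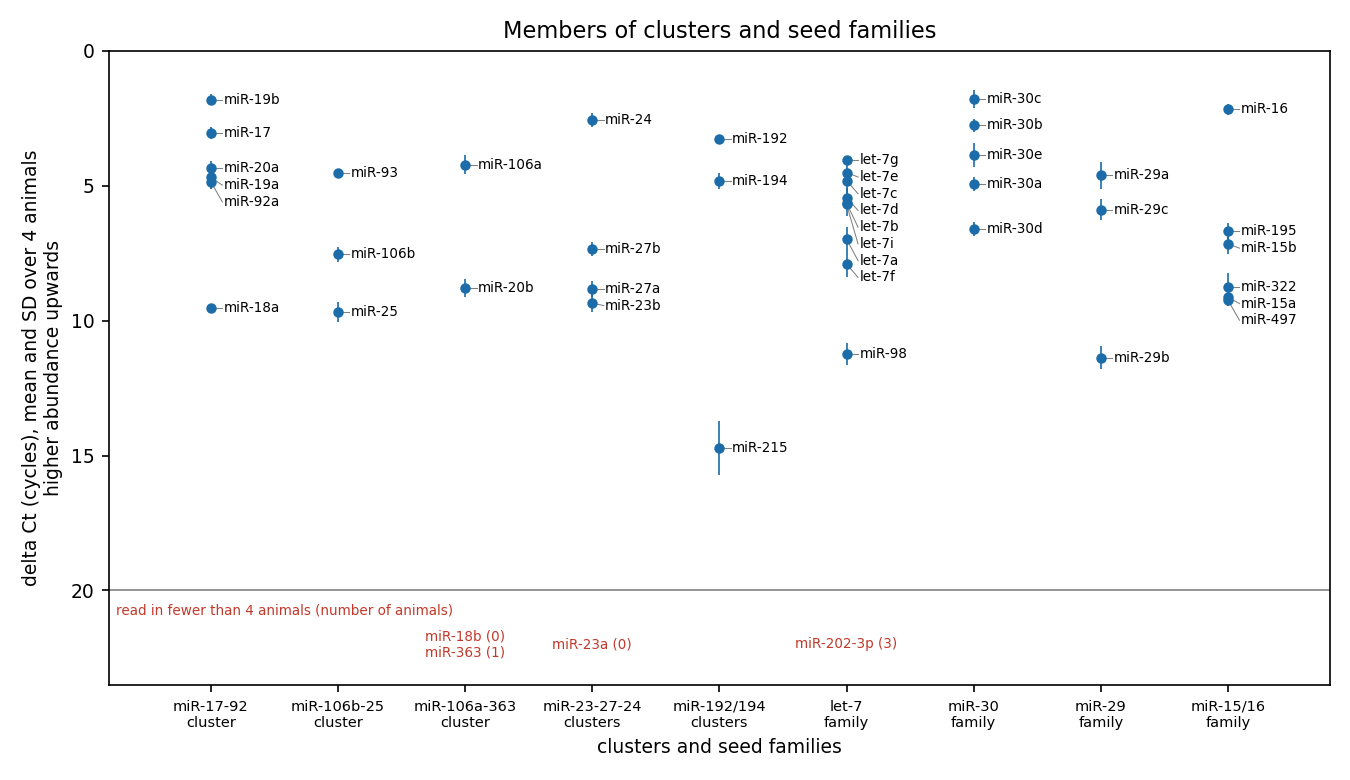
Mean delta Ct with SD over the 4 control animals (y axis in cycles, with abundance upwards) of the members of 5 cluster groups and 4 seed families, with members read in fewer than 4 animals named under the line with the number of animals. Members of one cluster or family spread over several cycles, such as miR-18a at 9.55 and miR-19b at 1.81, with SDs that are small beside these gaps.

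MiR-23a was undetermined in all 4 livers, while its cluster neighbours miR-27a (8.82 ± 0.29) and miR-24 (2.57 ± 0.26) were read in all 4. MiR-24 is also made from the miR-23b cluster, in which miR-27b was at 7.34 and miR-23b at 9.35. The last cycle stands for a delta Ct of 20.4 to 21.3 on card A and 22.1 to 23.0 on card B, so an undetermined assay on card A lies beyond the first range, if the assay works. No sample in which the miR-23a assay is known to work was used here.

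The 130 assays undetermined in all 4 livers were 67 of 335 on card A (20%) and 63 of 182 on card B (34.6%), among them 33 star strands. On card A they were concentrated at high miRNA numbers, which follow the order of discovery. Of the 123 assays numbered below 200, 5.69% were undetermined in all 4 and 83.7% were read in all 4, with a median delta Ct of 7.22. From 200 to 399 the undetermined share was 19.4% of 93, from 400 to 599 it was 23.9% of 71, and from 600 up it was 52.1% of 48. The 7 assays numbered below 200 without a Ct were those of miR-18b, miR-23a, miR-34c, miR-105, miR-147, miR-153 and miR-188-3p.

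Some lists of other tissues were largely undetermined, and others were not. In the miR-302 cluster of embryonic stem cells, miR-302b, miR-302c, miR-302d and miR-367 were undetermined and miR-302a was read in 2 animals, at 20.6 and 15.6. In the miR-290 cluster, also of embryonic stem cells, 5 of 11 assays were undetermined, 4 were partly read, and miR-294 (14.7 ± 1.31) and miR-295 (14.1 ± 0.87) were read in all 4. Of the 19 assays placed by position in a cluster on chromosome X known from testis, 14 were undetermined, 3 were partly read, and miR-741 (14.7 ± 1.14) and miR-470* were read in all 4. Of the neural list 6 of 9 assays were read in all 4, miR-124 (10.4 ± 0.90), miR-218 (10.9), miR-137 (11.1), miR-138 (12.1), miR-128a (12.9) and miR-9 (16.7 ± 1.71), while miR-129-5p was read in 1 animal and miR-153 and miR-219 in none. Of 6 pancreatic assays miR-375 (9.58 ± 0.45) and miR-7b (14.2) were read in all 4, miR-7a in 3, miR-216b in 2, miR-217 in 1 and miR-216a in none. MiR-375 was thus above the median of 10.4 of the assays read in all 4, and miR-124 was at it. The heart miRNAs miR-208 and miR-499 were undetermined, and miR-208b was read in 1 animal. MiR-34c, a miRNA of ciliated cells, was undetermined, while the assay of its star strand was read in all 4 (14.9 ± 0.46).

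MiRNAs associated with cell types were read as lists, and whether each member is particular to its type was not tested. In whole tissue, fewer cells of a type and less RNA per cell cannot be told apart. All 11 assays of the hepatocyte list were read in all 4 livers. They held 26.0 ± 3.52% of the summed level (miR-122 alone 21.7%), or 21.2 ± 4.60% with card B shifted (miR-122 alone 14.8%). After miR-122 these were miR-192, miR-194, miR-21 (5.07), miR-148a (5.55), miR-378 (6.31, card B), miR-101a (7.12), miR-101b (8.27, card B), miR-802 (8.61), miR-193 (12.1) and miR-22 (13.3, card B). With card B shifted, miR-378 was at 2.20, before miR-192, miR-101b at 4.16 and miR-22 at 9.23, before miR-193, so the order across the cards depends on the scale. The endothelial miR-126 arms held 15.8 ± 1.42%, or 10.6 ± 0.99% with the shift. All 7 leukocyte assays were read, with miR-146a (4.08), miR-142-3p (5.23) and miR-223 (5.30) first and miR-142-5p (12.8) last. Together they held 2.52 ± 0.32%. The erythroid miR-486 (8.78) and miR-451 (8.83) were lower than miR-223, at 0.0915 ± 0.0203% together. Of the mesenchymal and stellate list, miR-145 (4.57), miR-143 (6.78), miR-199a-3p (7.24) and miR-214 (8.57) were read in all 4. Of the epithelial and biliary list, miR-31 (4.96), miR-200b, miR-429 and miR-200a were evenly read, while miR-200c (8.87 ± 0.99) and miR-141 (11.8 ± 1.05) varied more and were both earliest in control 2.

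MiRNAs of skeletal muscle were very uneven between the animals. MiR-1 was at 16.1, 12.2, 13.8 and 10.4 in controls 1 to 4, a range of 5.73 cycles or 53.2-fold. MiR-133a was at 12.1, 10.4, 13.7 and 8.66, a range of 33.0-fold. MiR-206, measured on card B, was at 13.5, 14.7, 13.6 and 10.9, a range of 13.8-fold. MiR-133b was read in control 2 (14.1) and control 4 (13.4) only. All 4 miRNAs were thus earliest in control 4, on both cards, while the order of the other 3 animals was not shared by them. The SDs of miR-1 (2.43) and miR-133a (2.17) compare with a median of 0.70 for assays of the same Ct from 30 to 35. The muscle list held 0.00829%, 0.0227%, 0.00392% and 0.0659% of the summed level in controls 1 to 4. The part of such other tissues in the levels of the livers was not tested.

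**Figure D4:**
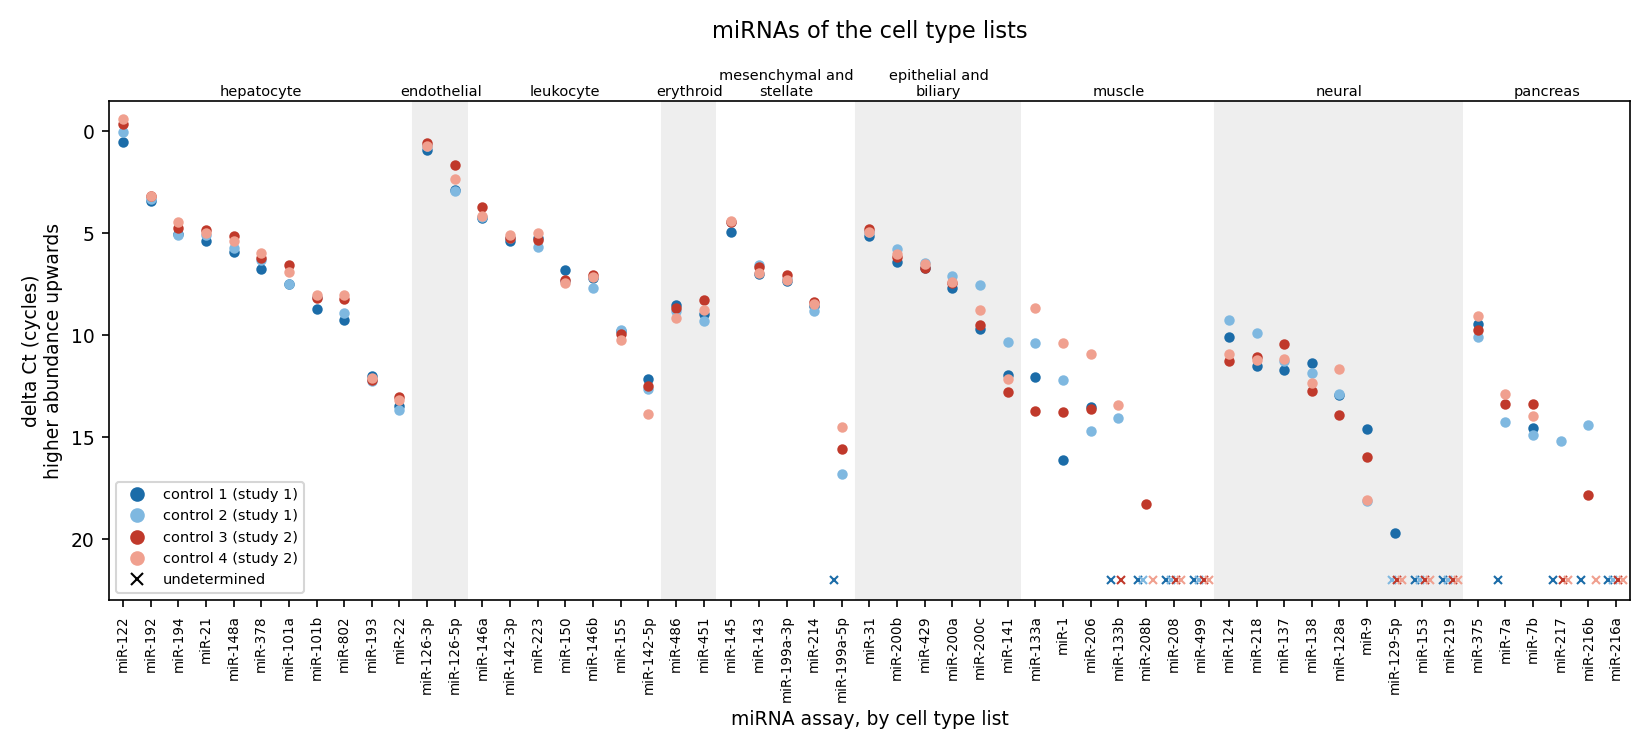
Delta Ct (cycles, with abundance upwards) of every assay of 9 cell type lists, with 1 point for each control animal and crosses near the bottom for undetermined assays. Hepatocyte, endothelial and leukocyte miRNAs range over at most 1.69 cycles between animals, the widest being miR-142-5p. MiRs-1, 133a and 206 range over 3.78 to 5.73 cycles, with control 4 uppermost.

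Among assays with a mean Ct below 30, the most even between animals were miR-532-5p (7.44, SD 0.05), miR-345-5p (SD 0.05), let-7i (SD 0.06), miR-191 (SD 0.09) and miR-210 (SD 0.10). The most uneven was miR-672, at 9.99, 10.1, 13.1 and 9.72, in which control 3 alone was late. It was followed by miR-801 (SD 1.16), miR-188-5p (SD 1.00), miR-200c (SD 0.99) and miR-124 (SD 0.90).

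Imprinted miRNAs were read about as often as others. Of 62 assays placed by position in the Dlk1-Dio3 region of chromosome 12, 35 were read in all 4 livers, 15 in some and 12 in none. On card A these were 29 of 44 (65.9%), beside 64.2% of all assays of the card. A separate list of this region, without star strands, had 35 assays on the cards, of which 27 were read in all 4 livers. That list held 1.46 ± 0.25% of the summed level. MiR-379 (6.65 ± 0.10), miR-127 (6.80 ± 0.26), miR-411 (7.06 ± 0.16) were among the first 4, with miR-431. MiR-675-3p, from the imprinted H19 transcript, was at 10.3, 10.0, 10.2 and 9.77, while miR-675-5p was undetermined. MiR-483*, from an intron of Igf2, was at 9.64 ± 0.20 on card B. MiRs-335-5p (7.88) and 335-3p (8.97), from an intron of Mest, differed by 1.09 ± 0.13 cycles.

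The arms of 1 hairpin can be compared without crossing the cards where both assays carry an arm name and lie on 1 card. Of 47 such hairpins 39 had both arms on the same card, and for 17 of these both arms were read in all 4 animals. The 5p arm was higher in 4 of 4 animals for 10 hairpins (58.8%) and the 3p arm for 7 (41.2%), so none changed order between animals. The largest gap was that of miR-342, with its 3p arm earlier by 10.4, 8.37, 9.99 and 10.7 cycles. MiR-142-3p was earlier than its 5p arm by 7.56 ± 0.86 cycles, or 188-fold, and miR-331-3p by 6.93 ± 0.48. The 5p arm of miR-296 was earlier by 7.04 ± 1.73 cycles and that of miR-345 by 3.94 ± 1.28. The gap was below 1 cycle for 2 hairpins, miR-542 (0.55 ± 0.30) and miR-337 (0.73 ± 0.53). In 4 further hairpins on 1 card, one arm was read in all 4 livers and the other in none. These were miR-188 (5p read), miR-466d, miR-509 and miR-675 (3p read).

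The arms of 3 of these hairpins are shown, with the seed in capitals, since the arms of a hairpin carry different seeds. Both arms of miR-342 and miR-142 were read in all 4 livers, and only the 3p arm of miR-675 was.
miR-342-3p: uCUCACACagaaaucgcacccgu
miR-342-5p: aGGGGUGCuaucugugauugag
miR-142-3p: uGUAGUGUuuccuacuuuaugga
miR-142-5p: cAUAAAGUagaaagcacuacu
miR-675-3p: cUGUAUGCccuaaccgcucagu
miR-675-5p: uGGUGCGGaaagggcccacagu

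The star strand assays were all on card B, 110 in number. Of these 43 (39.1%) were read in all 4 livers and 33 (30%) in none. The other 72 assays of card B were read in all 4 in 37.5% of cases and in none in 41.7%, and the assays of card A in 64.2% and 20%. The median delta Ct of star strands read in all 4 was 14.7, against 14.9 for the other assays of card B and 9.22 for those of card A. The median of the star strands was thus close to that of the other assays of their own card.

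For 101 star strands the assay of the same name without the star was on the cards, and 95 of these pairs were split between card A and card B. The remaining 9 star strands had no such partner. Both strands were read in at least 3 animals for 44 pairs, 40 split and 4 on card B, and the difference was tested within animals with limma. The guide was higher in 39 of the 44 (88.6%) and the star strand in 2 (4.55%) at an adjusted p below 0.05, and the median difference was 6.48 cycles. Of the 33 pairs read in all 4 animals, the guide was higher in 4 of 4 for 30 (90.9%) and the star strand for 1 (3.03%). For split pairs, strand and card cannot be told apart. With card B lowered by the small nucleolar RNA shift, the guide was higher in 28 (63.6%) and the star strand in 13 (29.5%), and 9 pairs called for the guide on the first scale were called for the star strand on the second.

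On both scales the guide was higher in 28 pairs. MiR-16* was later than miR-16 by 16.2, 13.5, 16.8 and 15.7 cycles (mean 15.5, SE 0.56, adjusted p = 6.68e-07 by limma). MiR-26b* was later than miR-26b by 15.4 cycles in the 3 animals in which it was read, let-7d* than let-7d by 15.2, and miR-148a* than miR-148a by 13.3. Next were miR-200b* (12.1), miR-218-1* (10.6), miR-24-2* (10.6), miR-20a* (10.6), miR-200a* (10.2) and miR-744* (9.98). These gaps exceed the shift of 4.11 ± 0.16 cycles, but the late star assays are those with the least precise wells. Others of the 28, such as miR-425 (5.18), had gaps below the Y1 difference between the cards (8.71 ± 1.70), which the shift leaves out. In 23 pairs the guide was read in all 4 livers and the star strand in none, among them miR-30c with both of its star strands, miR-145, miR-19a, miR-92a and let-7b. The reverse, a star strand read in all 4 and the guide in none, was found for miR-34c, miR-330 and miR-470.

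The 2 pairs called for the star strand on both scales were miR-7a* and miR-877*. The shift lowers card B, which holds every star strand, so it could not turn a pair from the star strand to the guide. The second scale is therefore no further test of these pairs. MiR-7a* was at 11.4, 11.1, 10.9 and 10.9, and miR-7a was undetermined in control 1 and at 14.2, 13.4 and 12.9 in the others. The star strand was earlier by 2.57 cycles (SE 0.36, adjusted p = 0.000984 by limma, 3 animals), or by 6.69 with the shift. MiR-7a is a miRNA of endocrine and neural cells that is made from more than one hairpin, while the star assay is matched to 1 of them. MiR-877, cut from a short intron, has both strands on card B, and its star strand was earlier by 2.60, 0.86, 2.69 and 2.69 cycles (mean 2.21, SE 0.39, adjusted p = 0.00151 by limma). The duplicate wells of the miR-877 assay differed by 1.20, 1.88, 1.29 and 0.96 cycles in controls 1 to 4, so this difference is imprecise. The other 3 pairs on card B did not depend on the shift. MiR-378 was earlier than miR-378* by 8.97 cycles (SE 0.42), miR-22 was earlier than miR-22* by 1.26 cycles (SE 0.30, adjusted p = 0.00544 by limma), and miR-485* was earlier than miR-485 by 1.21 cycles in 3 animals, which did not pass over all 44 pairs (adjusted p = 0.0589) and passed in a fit of the 4 pairs of card B alone (adjusted p = 0.0406 by limma). In that fit 2 guides and 2 star strands were higher.
miR-7a: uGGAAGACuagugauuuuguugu
miR-7a*: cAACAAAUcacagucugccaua
miR-877: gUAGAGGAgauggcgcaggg
miR-877*: uGUCCUCUucucccuccuccca
miR-22: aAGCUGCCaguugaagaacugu
miR-22*: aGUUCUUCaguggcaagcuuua

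Where the strands were close, the scale of the cards decided the order. MiR-30a* was at 6.63, 6.09, 6.15 and 6.17 in controls 1 to 4, among the earliest of card B, and was later than miR-30a by 1.32 cycles (SE 0.24), but earlier by 2.79 with the shift. MiR-30e* (6.68 ± 0.21) was later than miR-30e by 2.81 cycles and earlier by 1.30 with the shift. On average miR-674* and miR-503* were earlier than their guides, by 0.92 and 0.89 cycles. Both passed the test only with the shift, by 5.03 and 5.00. Without the shift the animals differed in direction, as the guide was higher in 2 of 4 for miR-674 and in 1 of 4 for miR-503. The miR-674 mean rests mostly on control 3 (−3.23 cycles). The other pairs that turned from guide to star strand with the shift were those of miR-28, miR-193, miR-322, miR-376b, miR-455, miR-467b and miR-872. The star strands of miR-30a and miR-30e share the seed UUUCAGU and are shown because they were the most abundant star strands.
miR-30a*: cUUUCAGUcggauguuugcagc
miR-30e*: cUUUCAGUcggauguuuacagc

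**Figure D5:**
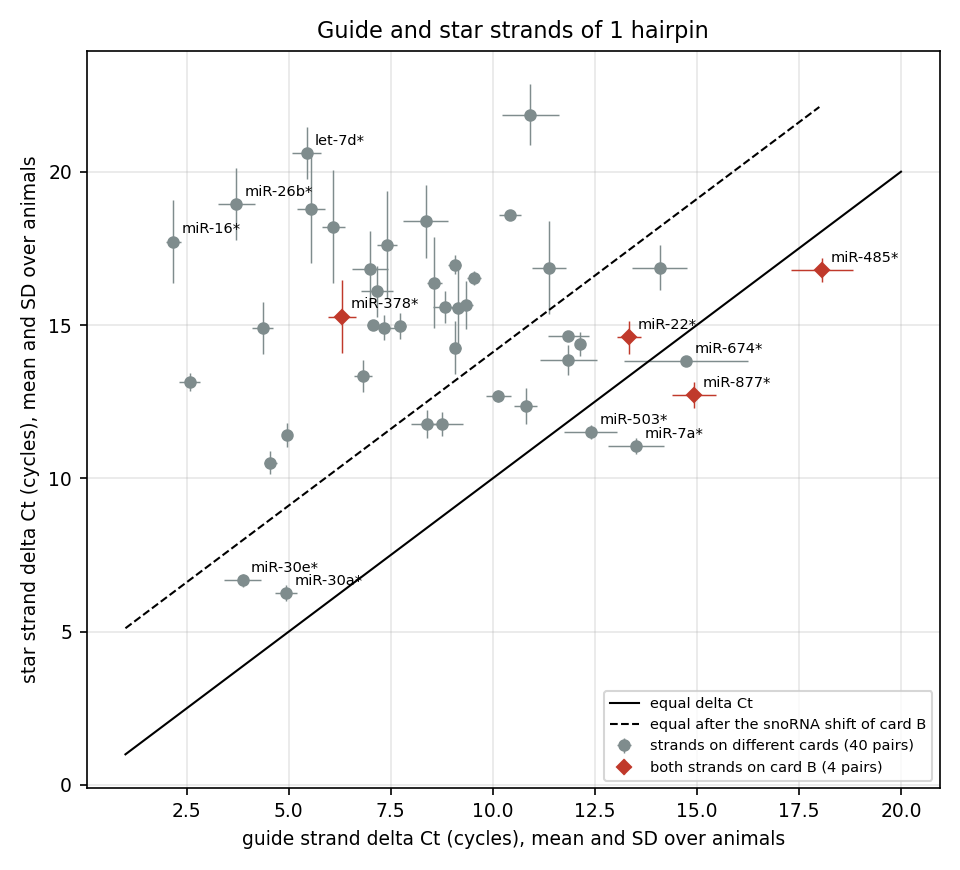
Delta Ct (cycles) of the star strand against that of the guide for the 44 pairs tested, as means with SD over the animals in which each was read, with the line of equal delta Ct and the same line after the shift of card B. Points above a line have a higher guide, and the 40 split pairs lie on both sides of the dashed line, while the 4 pairs measured on 1 card need no shift.

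The first base also differed between the strands. In the 37 tested pairs with both sequences matched, the guide began with U in 21 and the star strand in 5, while C was the first base of 4 guides and 15 star strands. A first U is favoured when Argonaute loads a strand. Of the 25 among the first 30 assays that had a matched sequence, 19 began with U. Among matched assays other than star strands, 50.7% of the 150 read in all 4 livers began with U and 35.6% of the 45 undetermined in all 4 did, with a median length of 22 bases in each.

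The 2 studies were compared as a check of batches. Of 285 assays tested with limma, 0 differed between study 2 and study 1 at an adjusted p below 0.05 (0%), the smallest adjusted p was 0.482, and 27 had an unadjusted p below 0.05. With 2 animals in each study, small differences were not detectable, and large ones were not called either. The level of miR-449a differed by −3.06 cycles (study 2 minus study 1) and that of miR-544 by 2.28, both at an adjusted p of 0.482 by limma. Against U6, 209 of the 285 were higher in study 2, with a median difference of 0.29 cycles over all 285, and both animals of study 2 were above both of study 1 for 25 of the first 30 assays and for 41.1% of all 285. With the mean of the assays on the same card (those below a Ct of 35) in place of U6, the median difference was 0.06 cycles. That reference takes out, by construction, a difference shared by the assays of a card. The smaller value is therefore no test of U6.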

How the data were processed

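Liver RNA of 4 control pups was reverse transcribed with Megaplex rodent primer pools and run on TaqMan rodent miRNA cards A and B by real-time PCR. The authors deposited the threshold cycle (Ct) of every well and, in a second table, delta Ct values, which are on a log2 scale (1 unit for each doubling) and relative to U6. Levels were computed here from the Ct values, as the mean Ct of the wells read minus the mean U6 Ct of the same card. All 1345 values that could be compared were equal to the deposited delta Ct within 0.001. The 648 deposited values without a read well stand at cycle 40 and were treated as undetermined. No control well with a Ct was marked as rejected. The hypothyroid samples and the mRNA arrays were not used.

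Guide and star strands were compared with limma 3.58.1 (R 4.3.3) on the difference within each animal, over pairs read in at least 3 animals, and studies with limma over the assays read in all 4, both with Benjamini-Hochberg adjustment at 0.05 and after a test on simulated data. An exact sign-flip test with 4 animals cannot go below p = 0.125. Tables were made with pandas 2.3.3. The members and lists were chosen with earlier results of these data known. Named were the 30 most abundant assays, the 10 pairs with the largest difference each way and the 5 nearest to 0, the 5 largest and 5 smallest SDs below a Ct of 30, and list members. Pups came from separate litters by the methods. Alternatives were U6 over both cards, the mean of the assays of a card as reference, the deposited values, undetermined wells at cycle 40, a limit of 35 cycles, the study as a block, pairs on 1 card, each animal left out, and, chosen after seeing the data, card B shifted by 3 small nucleolar RNAs, values with both duplicate wells read, and cluster gaps on card A with 1 assay a hairpin. Ct has no depth, and the number of wells and animals limits its precision.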

Additional observations from a re-analysis of the deposited data

Results flagged for a closer look

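In a group of 4, one animal far from the others was marked where its gap to the nearest animal exceeded Dixon's 95% value of the whole range, which chance alone does for about 1 in 20 groups. Of 233 values tested 10 were marked (4.29%), of which 5 were set by control 3 and 3 by control 2. For miR-145 control 1 lay apart, with a gap of 0.887 of the range (4.96 against 4.40 to 4.46 in the others). For miR-25 it was control 4, with 0.914. Control 3 lay apart for miR-329 (0.840), for miR-434-5p (0.905), for miR-672 (0.876) and for the difference of miR-30e* and miR-30e (0.849). Its summed share of the testis cluster on chromosome X lay apart too (0.931), and rests on miR-741. Control 2 lay apart for the difference of miR-877* and miR-877 (0.953), for the summed share of the miR-302 cluster (0.963), which rests on miR-302a alone, and for the Y1 difference between the cards (0.848). Outside the mouse assays, the cards hold 67 assays with rat names, of which 23 were read in all 4 mouse livers and 23 in none.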

How the results depend on the processing

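MiR-122 stayed first under every alternative run. With U6 averaged over both cards its delta Ct was 0.68, the first 10 assays held 61.3% and 5 star strands were higher than their guides. With the mean of a card's assays as reference these were −8.88 for miR-122, 59.8% for the first 10 and 3.19% for let-7, and 13 of the first 20 assays were kept. With card B shifted by the small nucleolar RNAs, 13 of the first 20 were kept, the first 10 held 61.3%, let-7 held 2.90% and 13 star strands were higher. The deposited values gave 86 higher guides and 4 higher star strands, and undetermined wells at cycle 40 gave 89 and 6, since both test more pairs. The 4 pairs on 1 card alone gave 2 higher guides (miR-22 and miR-378) and 2 higher star strands (miR-877* and miR-485*), and the same sign in 4 of 4 animals left 1 higher star strand. Without 1 animal at a time, 43 to 45 guides and 2 to 4 star strands were higher (4 without control 1 or control 4, 3 without control 3), miR-122 lay between −0.33 and 0.05, the first 10 held 63.4% to 64.7% and let-7 4.20% to 4.39%. The star minus guide difference turned negative with U6 over both cards for miR-30a (−0.27) and miR-376b (−0.034). With card B shifted it turned for miR-183 (−1.32), miR-193 (−1.86), miR-28 (−0.71), miR-30a (−2.79), miR-30e (−1.30), miR-322 (−1.08), miR-376b (−2.55), miR-455 (−2.10), miR-467b (−1.31) and miR-872 (−1.56), by the construction of the shift. Between studies no assay was called under any alternative, with a smallest adjusted p of 0.197 to 0.747 by limma and 13 to 28 assays at an unadjusted p below 0.05. No paired analysis was possible because only the control group was used, and the strand differences are already within animals. Above 35 cycles, single wells limit what can be said.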

Other observations

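A few assays of card B moved together between the animals. MiR-720 was at 4.71, 3.36, 4.68 and 5.45 in controls 1 to 4, miR-709 at 5.01, 4.12, 5.33 and 5.93, and miR-801 at 10.7, 9.63, 11.4 and 12.4. MiR-706 was at 14.2, 13.5, 14.8 and 15.8. All 4 were highest in control 2 and lowest in control 4, and these assays were picked after their values were seen. The sequences named miR-720 and miR-801 have since been assigned to a tRNA and to the U11 RNA. U6 on card B was earlier than on card A by 1.74, 1.07, 1.42 and 2.13 cycles in the same animals, so the difference between the cards was smallest in control 2 and largest in control 4, and its part in the order of these assays was not tested.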
